A study of Mus musculus with 2 samples.

Results

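Axon guidance ligands and receptors were described as the genes whose symbols belong to the semaphorin, plexin, neuropilin, ephrin, Eph receptor, Slit, Robo, netrin, Unc5 and Dcc families. The symbols alone chose them, and 69 of 55536 annotated genes carried one, 35 ligands and 34 receptors. The gastrocnemius, a hindlimb calf muscle, was profiled by total RNA-seq in 2 male B6CASTF1/J mice at an age of 4 days, with 1 library from each animal. These mice are F1 hybrids of the C57BL/6J and CAST/EiJ strains, and the labels give no treatment, engineered allele or second condition. Each library started from 300 ng of RNA with ERCC spike-ins, synthetic RNAs added in known amounts. The animals are called replicate 1 and replicate 2 as in the labels, and with 1 group of 2 no test between conditions exists. All values are therefore descriptions, with the SD over the 2 animals where one is given.

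Guidance cues are secreted or membrane-bound proteins that tell a growing axon to approach, avoid or branch, and the same proteins pattern vessels and guide migrating cells. Semaphorins act through plexins, with neuropilins as the binding subunit for most secreted class members, while ephrins and Eph receptors are both membrane-bound and can signal in both directions. Slits are secreted repellents read by Robo receptors, and netrins attract through Dcc and repel through Unc5 receptors. In early postnatal muscle, motor axons lose surplus synapses while the vessel bed and the fibres are still growing. Muscle RNA holds the transcripts of fibres, satellite cells, vessels, fibroblasts and glia, and the cell bodies of the motor neurons lie in the spinal cord. In such bulk RNA, fewer cells of a type and less RNA per cell cannot be told apart.

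Most of the guidance genes were present in this muscle at low to moderate levels. A threshold of 1 TPM (a level scaled by transcript length and by library total) was met in both libraries by 55 of 69 members, or 79.7%. Among all 22028 protein-coding genes 12172 met it, or 55.3%. Every member had at least 1 count in both libraries, 11 lay under 1 TPM in both, and 3 passed in 1 library only. For these 55 members the median TPM was 6.18 in replicate 1 and 6.82 in replicate 2, below the 10.8 and 10.9 TPM of all protein-coding genes that passed the same threshold. Together the 69 genes summed to 641 ± 32.3 TPM (SD, n = 2) and took 0.216% of the gene counts in replicate 1 and 0.235% in replicate 2. Semaphorins held 44.5 ± 1.83% of that sum, plexins 21.2 ± 0.0357%, neuropilins 7.21 ± 0.0754% and EphB receptors 7.16 ± 0.517%. Each of the 7 other families held under 5%, the smallest being the netrin receptors with 1.40 ± 0.0218%.

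**Figure D1:**
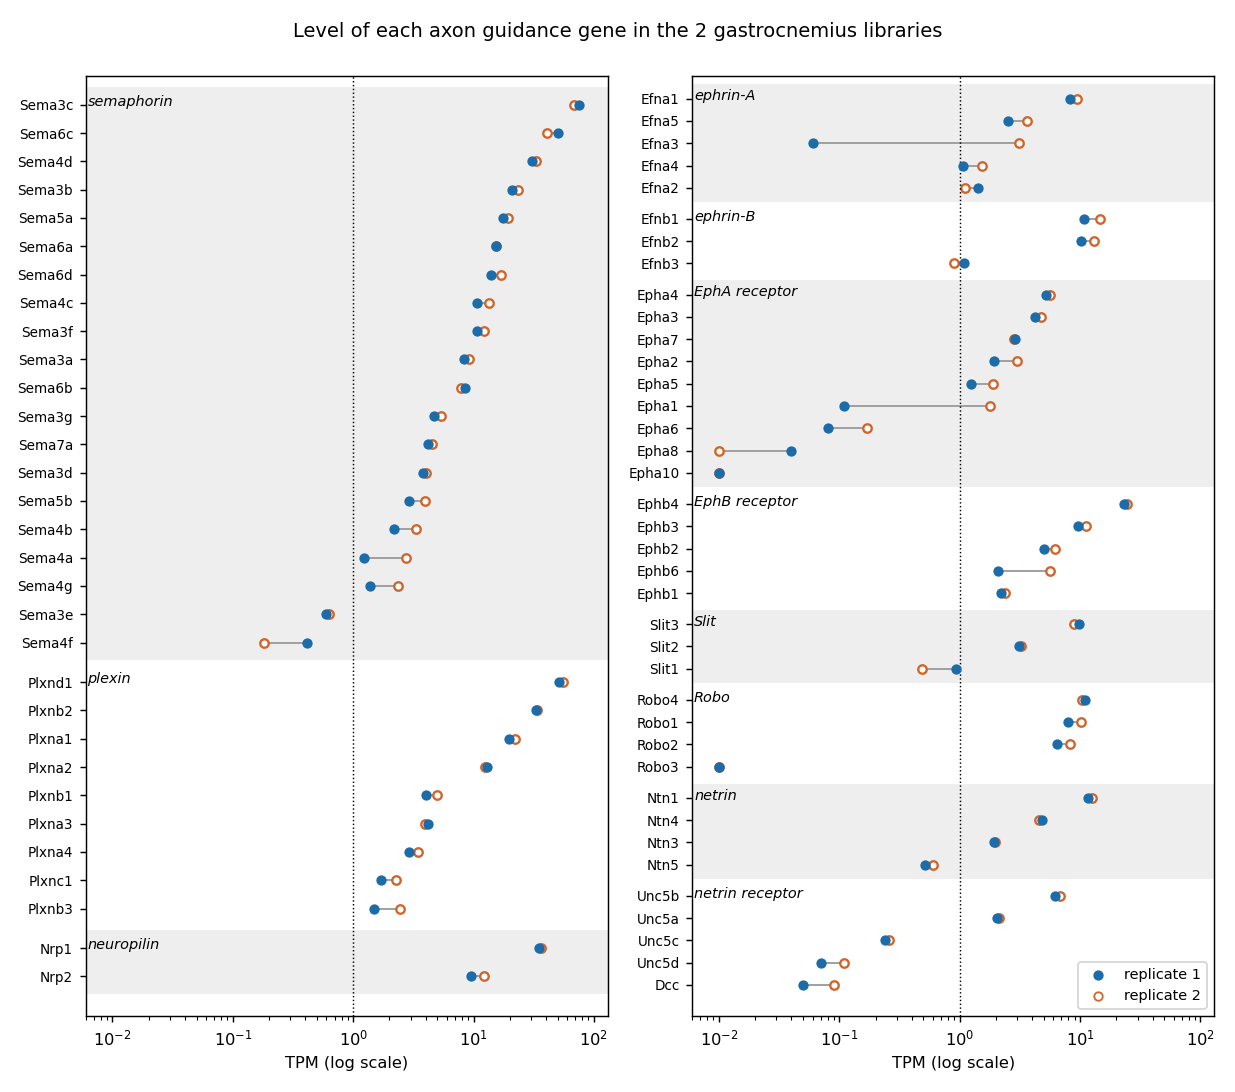
TPM of all 69 members on a log axis, by family, with filled points for replicate 1, open points for replicate 2 and a dotted line at 1 TPM. Most pairs of points lie close together, and the widest gaps are those of Efna3, with 0.06 and 3.11 TPM, and Epha1, with 0.11 and 1.77 TPM.

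The start-site sequences of 4 members are shown first because they span the range of CG content and of level among the members. RefSeq windows running from 250 bases before to 50 bases after a transcription start (GRCm38.p6, 300 bases) matched 59 of 69 members with 75 windows. Each is written 5′ to 3′ on the gene's strand with every CG dinucleotide, the site of DNA methylation in mammals, in capitals. Epha8 (chr4:136956767-136957066, minus strand) had the highest CG count of all member windows, and Sema3c (chr5:17574566-17574865, plus strand) the next highest. Robo4 (chr9:37401722-37402021, plus strand) and Robo3 (chr9:37433126-37433425, minus strand) are neighbouring genes.

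Epha8: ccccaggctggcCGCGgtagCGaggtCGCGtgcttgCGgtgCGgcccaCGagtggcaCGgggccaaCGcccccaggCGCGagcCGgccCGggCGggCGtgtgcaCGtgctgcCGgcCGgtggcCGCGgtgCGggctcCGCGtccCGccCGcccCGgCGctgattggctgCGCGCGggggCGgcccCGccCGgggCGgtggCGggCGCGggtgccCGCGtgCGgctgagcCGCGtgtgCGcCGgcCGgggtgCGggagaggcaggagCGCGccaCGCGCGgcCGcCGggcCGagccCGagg

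Sema3c: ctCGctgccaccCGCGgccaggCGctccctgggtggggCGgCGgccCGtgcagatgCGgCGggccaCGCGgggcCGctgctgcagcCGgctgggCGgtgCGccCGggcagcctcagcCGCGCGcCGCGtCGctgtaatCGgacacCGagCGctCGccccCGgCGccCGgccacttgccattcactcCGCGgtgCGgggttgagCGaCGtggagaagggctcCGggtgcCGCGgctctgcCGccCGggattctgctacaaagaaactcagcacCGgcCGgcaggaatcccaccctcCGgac

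Robo4: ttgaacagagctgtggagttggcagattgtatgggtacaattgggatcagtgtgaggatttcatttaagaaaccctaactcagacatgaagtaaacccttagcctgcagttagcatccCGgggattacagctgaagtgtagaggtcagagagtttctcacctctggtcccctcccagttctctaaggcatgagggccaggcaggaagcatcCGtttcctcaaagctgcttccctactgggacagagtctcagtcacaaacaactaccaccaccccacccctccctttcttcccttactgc

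Robo3: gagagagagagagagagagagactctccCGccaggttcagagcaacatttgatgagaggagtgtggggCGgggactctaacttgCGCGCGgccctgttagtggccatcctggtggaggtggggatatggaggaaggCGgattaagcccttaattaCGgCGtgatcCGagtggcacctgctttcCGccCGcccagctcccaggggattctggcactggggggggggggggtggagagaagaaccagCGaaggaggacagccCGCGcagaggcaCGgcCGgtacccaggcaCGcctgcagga

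Epha8, a neuronal Eph receptor, held 56 CGs and was nearly silent, with 0.04 TPM in replicate 1 against 0.01 TPM in replicate 2. Sema3c held 42 CGs and was the most abundant member, at 74.75 and 67.91 TPM. Robo4, a Robo of the vascular endothelium, held 2 CGs and stood at 11.09 and 10.46 TPM, whereas Robo3 held 17 and stood at 0.01 TPM in both libraries. Over all member windows the median was 19 CGs, against 7 over all 32851 windows of the same length, and 76% against 43.5% held 10 or more. The members are all protein-coding, whereas the full set of windows was not limited to protein-coding genes. The median was 19.5 CGs for the 64 windows of members that met the 1 TPM threshold and 17 for the 11 windows of the other members. The share with 10 or more CGs went the other way, at 75% and 81.8%, so no order of the 2 groups can be given. The letters CAGCTG, an E-box of the kind bound by myogenic factors and identical on both strands, were in 16% of member windows and in 16.3% of all windows. A match to such letters describes the window and shows no binding.

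**Figure D2:**
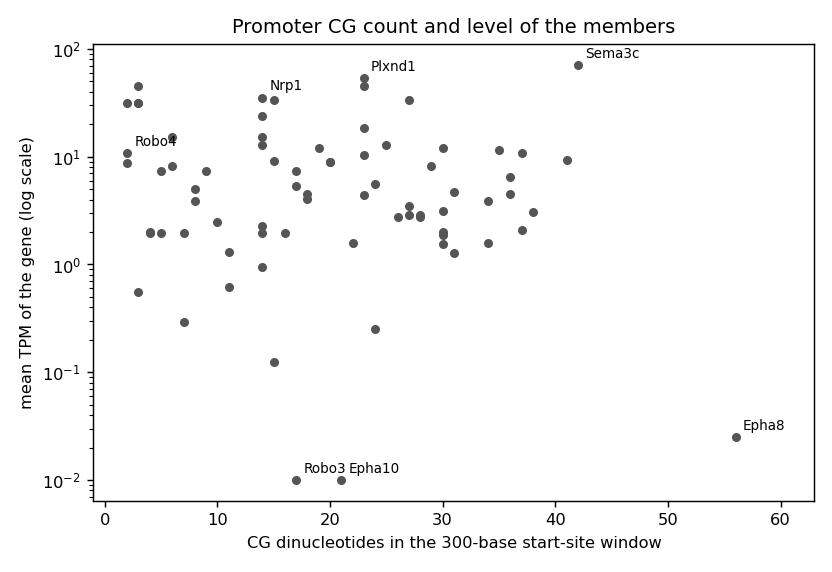
CG dinucleotides in each of the 75 start-site windows of 300 bases against the mean TPM of the gene on a log axis, 1 point per window. Sema3c lies at 42 CGs and 71.3 TPM, Epha8 at 56 CGs and 0.025 TPM, and Robo4 at 2 CGs and 10.8 TPM.

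Semaphorins were the largest and most abundant family, with 18 of 20 genes at 1 TPM or more in both libraries. Sema3c (mm10 chr5:17574281-17730268, plus strand), a secreted cue known for outflow tract and vascular patterning, led with 71.3 ± 4.84 TPM and held 25.0 ± 1.93% of the family's TPM. Sema6c, a transmembrane semaphorin, had 50.23 TPM in replicate 1 and 41.07 TPM in replicate 2. Sema4d, a ligand of plexin-B1 known in immune cells and bone, had 30.61 and 32.74 TPM. The secreted Sema3b had 20.74 and 23.50 TPM. These 4 kept the same order in both animals and were also the first 4 in the second quantification, described below.

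By structural class, the secreted class 3 summed to 123 ± 0.552 TPM over 7 genes and the transmembrane class 6 to 84.6 ± 4.90 TPM over 4 genes. Class 4 summed to 50.6 ± 5.93 TPM over 6 genes, class 5, which carries thrombospondin repeats, to 22 ± 1.97 TPM over 2, and Sema7a, the membrane-anchored single member of class 7, to 4.38 ± 0.226 TPM. The sums of classes 3, 6, 4 and 5 did not overlap between animals. Sema3a, the classical motor axon repellent that signals through neuropilin-1, had 8.29 TPM in replicate 1 and 9.18 TPM in replicate 2. Sema3f, which signals through neuropilin-2, had 10.78 and 12.26 TPM. Sema3e, which binds plexin-D1 directly without a neuropilin, had only 0.60 and 0.63 TPM, and Sema4f, the lowest, 0.41 and 0.18 TPM.

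All 9 plexins passed 1 TPM in both libraries, and 3 of them held 79.2% of the family's TPM in replicate 1 and 79.0% in replicate 2. Plxnd1 (mm10 chr6:115954811-115995005, minus strand), the plexin of endothelial cells and the receptor of Sema3e, led with 50.98 and 55.53 TPM. Plxnb2, a receptor for class 4 semaphorins, had 33.02 and 33.78 TPM, and Plxna1, a signalling partner of the neuropilins, 19.62 and 22.03 TPM. The lowest was Plxnb3 with 1.5 TPM in replicate 1 and 2.47 TPM in replicate 2. Among the neuropilins, Nrp1, which also binds VEGF, had 34.76 and 36.04 TPM and Nrp2, the receptor of Sema3f, 9.46 and 12.16 TPM. The neuropilin-1 transcript thus made up 76.7 ± 2.71% of the pair, and its 2 libraries did not overlap those of neuropilin-2.

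Ephrin-B ligands and EphB receptors outweighed the A class. Efnb1 had 10.79 TPM in replicate 1 and 14.71 TPM in replicate 2, and Efnb2, the ligand that marks arterial endothelium, 10.24 and 13.01 TPM, so the ranges of these neighbours overlapped. Efnb3, the third transmembrane ephrin, had 1.09 and 0.90 TPM. Among their receptors Ephb4, the venous counterpart of ephrin-B2, led with 23.20 and 24.70 TPM, and held 52.3 ± 4.10% of the EphB sum. Ephb3 followed with 9.54 and 11.10 TPM, and Ephb2 with 5.02 and 6.15 TPM. All 5 EphB genes passed 1 TPM in both libraries.

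The A class was lower. Efna1, the lipid-anchored ligand of EphA2, had 8.32 and 9.46 TPM, and Efna5, a repellent known in topographic motor and retinal maps, 2.52 and 3.60 TPM. Efna3 had 0.06 TPM in replicate 1 against 3.11 TPM in replicate 2, which rests on 2 and 92 counts, so its mean describes neither animal. Efna4 had 1.07 and 1.52 TPM. Of the 9 EphA receptors 5 passed 1 TPM in both libraries, led by Epha4, a receptor for both ephrin classes that steers limb motor axons, with 5.21 and 5.58 TPM. Epha3 followed with 4.22 and 4.72 TPM. Epha6 had 0.08 TPM in replicate 1 and 0.17 TPM in replicate 2, and Epha10, an Eph receptor without kinase activity, had 1 count in each library.

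The Slit and Robo genes stood at up to about 11 TPM, with 1 Slit under 1 TPM in both libraries and 1 Robo nearly silent. Slit3 had 9.80 TPM in replicate 1 and 8.86 TPM in replicate 2 and Slit2 3.11 and 3.22 TPM, and the 2 genes did not overlap. Slit1, the form best known in brain, had 0.94 and 0.49 TPM, although its counts of 83 and 75 were close. Robo4 had 11.09 and 10.46 TPM, Robo1 8.00 and 10.14 TPM and Robo2 6.38 and 8.31 TPM, with Robo1 and Robo2 overlapping across animals. Robo3, a receptor of commissural neurons, had 1 count in each library.

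Netrins were carried mainly by Ntn1, the prototype chemoattractant of the floor plate, with 11.65 TPM in replicate 1 and 12.67 TPM in replicate 2. Ntn4, a basement membrane netrin, had 4.84 and 4.53 TPM, Ntn3 1.91 and 1.97 TPM, and Ntn5 0.51 and 0.60 TPM. Ntn3 overlaps the same-strand gene Tbc1d24, which had 856 and 609 counts against its own 229 and 227, so reads could be split between them. Of the receptors, Unc5b, which is known in vessels, had 6.18 and 6.82 TPM and held 72.2 ± 0.262% of the receptor sum. Unc5a followed with 2.04 and 2.14 TPM, and Unc5c stood at 0.24 and 0.26 TPM. Unc5d had 0.07 and 0.11 TPM, and Dcc, the attractive netrin receptor of neurons, 0.05 TPM from 12 counts in replicate 1 and 0.09 TPM from 20 counts in replicate 2.

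Receptor and ligand levels were set against each other within each system, as the log2 ratio of summed TPM with a pseudocount of 0.1 TPM per gene. Receptors exceeded ligands for Robo over Slit, by 1.03 ± 0.22 (SD, n = 2), and for EphB over ephrin-B, by 0.86 ± 0.08. Ligands exceeded receptors for plexins and neuropilins over semaphorins, at -0.65 ± 0.06, and for Unc5 and Dcc over netrins, at -1.06 ± 0.05. Summed receptors came to 182 ± 9.90 TPM against 285 ± 2.67 TPM of ligands in the semaphorin system, and to 9 ± 0.594 TPM against 19.3 ± 0.608 TPM in the netrin system. EphA over ephrin-A stood at 0.19 ± 0.10, and over protein-coding transcripts alone at -0.012, so no order of these receptors and ligands can be given. The other 4 systems kept their direction in both libraries, in both quantifications and over protein-coding transcripts alone. These sums compare RNA, and pairs within a system do not all bind each other. They also leave out receptors outside the chosen families. The netrin receptor Neo1 alone had 34.67 TPM in replicate 1 and 33.78 TPM in replicate 2, above the summed netrins at 18.91 and 19.77 TPM. The direction given for netrins therefore holds for Unc5 and Dcc only, not for all netrin receptors.

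**Figure D3:**
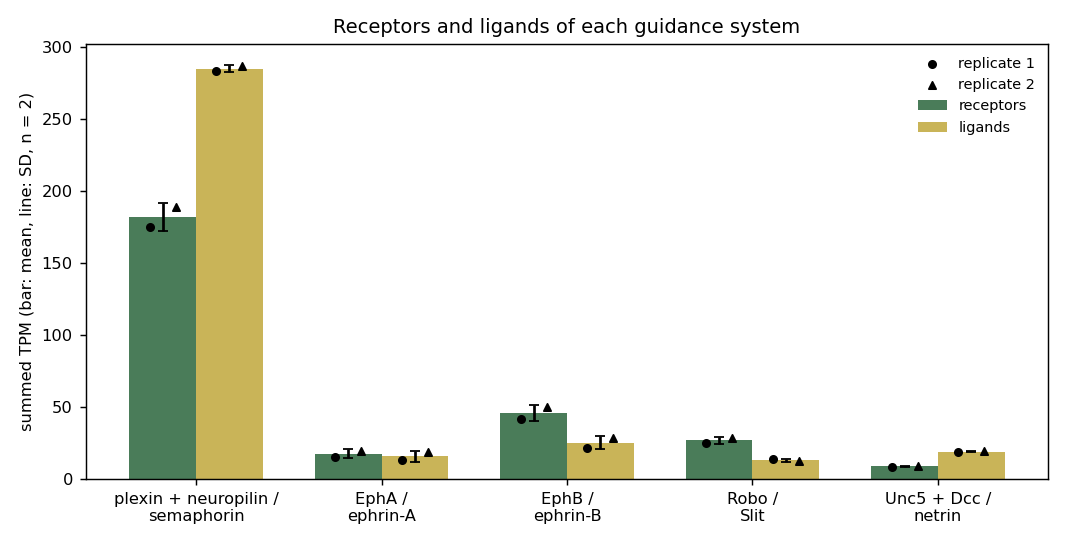
Summed TPM of the receptors (green, left) and ligands (yellow, right) of each system, with bars for the mean, lines for the SD over the 2 animals, circles for replicate 1 and triangles for replicate 2. Ligands are higher in the semaphorin and netrin systems, receptors in the EphB and Robo systems, and the EphA pair overlaps. The netrin receptors shown are Unc5 and Dcc only, without Neo1.

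The 2 animals differed in a one-sided way. After TMM scaling, which sets libraries on a common scale from the bulk of genes, 66 members had a mean count of 10 or more. Of these 11, or 16.7%, were more than 1.5-fold apart, against 12.7% of all genes. None was higher in replicate 1, where 3.53% of all genes were, and 11 were higher in replicate 2, where 9.14% of all genes were. With a mean count of 100 or more, 6 of 54 members, or 11.1%, were higher in replicate 2, against 3.13% of all genes. The median log2 ratio of replicate 1 over replicate 2 was -0.17 for the members and -0.01 for all genes, and 77.3% against 50.9% were below 0. With 1 library per animal the difference has no replicate check, and intervals cover counting error only.

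Class 4 semaphorins made up 3 of the 6 well-counted members. Sema4a, a transmembrane semaphorin known in immune cells, had 84 counts (1.24 TPM) in replicate 1 and 150 counts (2.72 TPM) in replicate 2, a log2 ratio of -0.91 with a 95% counting interval from -1.32 to -0.52. Sema4g had 139 and 240 counts, at 1.38 and 2.35 TPM, a log2 ratio of -0.87. Sema4b had 219 and 320 counts, at 2.19 and 3.34 TPM, a log2 ratio of -0.63. In each of the 3 genes replicate 2 was the higher animal, although Sema4b fell short of 1.5-fold in the read-based counts, at -0.58. Of the other class 4 members Sema4d stood at -0.15, Sema4c at -0.22 and Sema4f, from 24 and 19 counts, at 0.25.

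The other 3 were receptors. Ephb6, an Eph receptor without kinase activity, had 201 counts in replicate 1 and 324 counts in replicate 2, a log2 ratio of -0.77, and 2.06 and 5.66 TPM. Epha2, an Eph receptor known in epithelia, had 193 and 303 counts, at 1.93 and 3.00 TPM, a log2 ratio of -0.73. Plxnb3 had 251 and 367 counts, a log2 ratio of -0.63. All 3 were higher in replicate 2, and Ephb6 differed more in TPM than in counts. Its leading transcript held 89.6% of the gene in replicate 1 and 51.9% in replicate 2, and TPM divides by the length of the assigned transcripts.

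The widest gaps belonged to genes of low count. Efna3 (mm10 chr3:89313899-89322965, minus strand) had a log2 ratio of -5.28 with an interval from -8.67 to -3.71. Epha1 (mm10 chr6:42358487-42373268, minus strand), an Eph receptor known in epidermis, had 10 counts in replicate 1 and 153 counts in replicate 2, a log2 ratio of -3.95 with an interval from -5.11 to -3.10. Epha1 overlaps Zyx on the opposite strand, which had 3302 and 2865 counts, and no source used here states whether the counting used strand. The remaining 3, Unc5d, Epha6 and Dcc, had ratios of -0.98, -0.93 and -0.79 with intervals that include 0.

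On the other side, Sema6c, Sema6b and Sema3c were higher in replicate 1 with intervals that excluded 0. Sema6c had a log2 ratio of 0.30, Sema6b 0.16 and Sema3c 0.15, all under 1.5-fold. The share of all genes with such an interval was not computed. In the read-based counts 9 of the 11 members stayed more than 1.5-fold apart. Plxnb3 was barely past that limit, at a log2 ratio of -0.586.

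**Figure D4:**
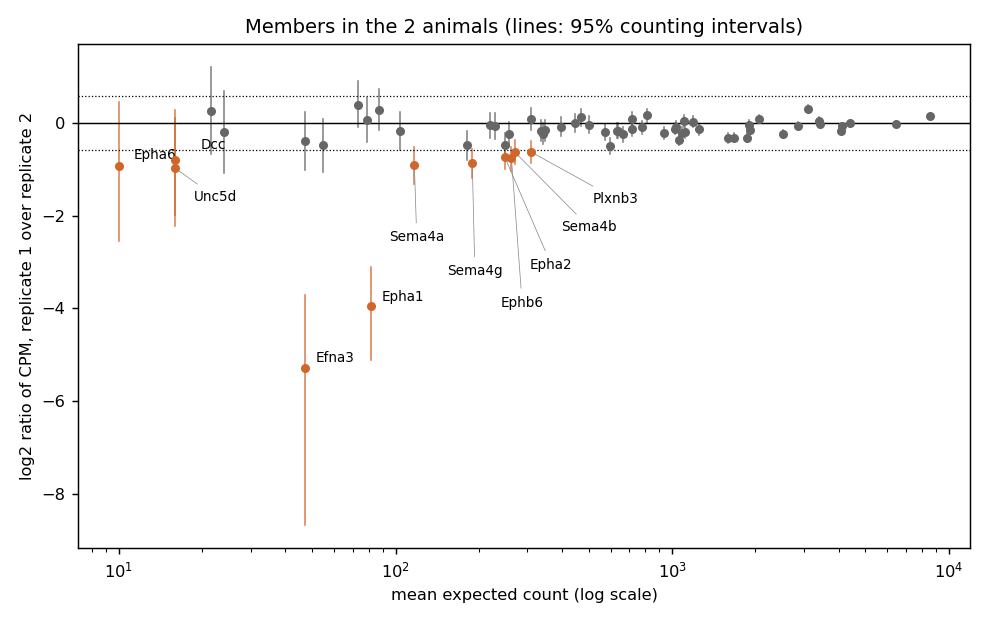
Log2 ratio of replicate 1 over replicate 2 against the mean expected count on a log axis for the 66 members of mean count 10 or more, with 95% counting intervals as lines and dotted lines at 1.5-fold. The 11 coloured members lie below the lower dotted line, that is higher in replicate 2, and none lies above the upper one.

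Markers of some cell types moved with this difference, those of epidermis and Schwann cells most, and their part in it was not tested. The 5 epidermal genes Krt1, Krt10, Krt5, Krt14 and Krtdap summed to 9.56 TPM in replicate 1 and 721 TPM in replicate 2, and 5 of 5 were more than 1.5-fold higher in replicate 2. Of the Schwann cell genes, the myelin gene Mbp had 85.35 TPM in replicate 1 and 204.25 TPM in replicate 2, a log2 ratio of -1.23. The log2 ratios of Ngfr, Erbb3, S100b, Sox10 and Cdh19 lay between -0.49 and -0.16, all higher in replicate 2 by less than 1.5-fold. Sums in replicate 1 and replicate 2 were closer for endothelium at 271 and 277 TPM (9 genes), pericytes and smooth muscle at 379 and 385 TPM (8), fibroblasts at 7757 and 7681 TPM (8), satellite cells and myoblasts at 220 and 196 TPM (6), and macrophages at 74.1 and 84.1 TPM (6). Of the satellite cell and myoblast list, Myod1 was more than 1.5-fold higher in replicate 1, with 31.19 TPM against 19.09 TPM in replicate 2. All 6 macrophage genes were higher in replicate 2, each by less than 1.5-fold. The muscle fibre genes, 5 in number and all of them present, summed to 39909 and 36983 TPM, as the tissue label says. Of 12 neuronal genes 2, Gap43 and Stmn2, passed 1 TPM in both libraries, and the motor neuron genes Chat and Mnx1 had 0 counts.

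Some members lie within 500 kb of each other, and 3 of these neighbour pairs differed widely in level. Robo4 (chr9:37401897-37415115, plus strand) and Robo3 (chr9:37415669-37433246, minus strand) end 553 bases apart, at 10.8 ± 0.445 TPM for Robo4 and 0.01 TPM for Robo3. Ephb2 and Epha8 lie 93430 bases apart on chromosome 4, at 5.59 ± 0.799 TPM for Ephb2 and 0.025 ± 0.0212 TPM for Epha8. Efna1, Efna3 and Efna4 stand in a row on the minus strand of chromosome 3, with gaps of 32756 and 10424 bases. Of these neighbours Efna1 differed by a log2 ratio of -0.17 between animals and Efna4 by -0.48, while Efna3, between them, differed by -5.28. Sema3a and Sema3e lie 422710 bases apart on chromosome 5, at 8.74 ± 0.629 TPM and 0.615 ± 0.0212 TPM. Sema3b and Sema3f, 72270 bases apart on chromosome 9, were both above 10 TPM in both animals.

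Which transcripts carried these genes was read from both deposited quantifications, 1 made from alignments and 1 made directly from the reads. The members have 418 annotated transcripts, 208 of them protein-coding. Of 56 members with a mean of 1 TPM or more, 51 had the same leading transcript in both quantifications. By alignments 55 were led, in mean percent over the libraries, by a protein-coding transcript. The exception was Epha5, led by a retained intron. Efna3 is among the 55, although a processed transcript held 61.65% of it in replicate 2, the library with nearly all of its counts. In the read-based table Epha5 was led by a protein-coding transcript, while Sema4c was led by a retained intron, with 33.7 ± 8.44% of its TPM, and Robo4 by a nonsense-mediated decay transcript, with 41.3 ± 0.761%. Of the 31 members with a mean of 5 TPM or more, 20 had a transcript with at least 50% of the gene's TPM. Protein-coding transcripts held a median of 86.3% of the TPM of these 31, between 43.7% for Sema6c and 100%.

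Among ligands, the leading transcript held 100% of the alignment-based TPM of Efna1, 97.6 ± 3.39% of Ntn1, 91.6 ± 3.84% of Efnb1 and 86.4 ± 6.90% of Slit3, while Sema3g has only 1 annotated transcript. In the read-based table the same transcripts held 63.2 ± 0.448% of Efna1, 74.1 ± 5.39% of Ntn1, 56.6 ± 0.484% of Efnb1 and 79.3 ± 10.1% of Slit3. The leading transcript held 75.0 ± 8.58% in Efnb2, 74.9 ± 5.50% in Sema6b, 74.1 ± 1.12% in Sema3c, 63.5 ± 3.30% in Sema5a, 53.4 ± 0.820% in Sema4d and 52.4 ± 3.17% in Sema3a. The remaining semaphorins of this level were spread over several transcripts, with 43.7 ± 1.74% for the leading one in Sema6a, 37.6 ± 3.21% in Sema6d, 35.0 ± 5.25% in Sema3b, 34.6 ± 3.46% in Sema3f, 32.0 ± 14% in Sema4c and 27.0 ± 4.94% in Sema6c. In the read-based table the same transcripts held 28.4 ± 1.95% of Sema6a, 15 ± 4.64% of Sema6d and 6.62 ± 1.80% of Sema4c. The leading Sema4d transcript is 1249 bases long, short for this gene family.

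Receptors were similarly divided. The leading transcript held 87.9 ± 0.997% in Nrp1, 87.5 ± 2.76% in Ephb4, 83.1 ± 6.06% in Plxna1, 81.9 ± 1.61% in Plxna2, 78.7 ± 3.22% in Ephb3, 76.0 ± 1.70% in Robo1 and 74.1 ± 0.0636% in Unc5b. It held 61.2 ± 2.72% in Plxnd1, 51.3 ± 0.481% in Plxnb2, 47.8 ± 18.2% in Epha4, 46.3 ± 2.44% in Ephb2, 40.2 ± 0.651% in Nrp2, 39.0 ± 1.03% in Robo2 and 33.8 ± 4.29% in Robo4. By read-based TPM these transcripts held 93.4 ± 2.60% of Plxnd1 and 49.2 ± 10.6% of Robo1. Among these 14 receptors the alignment-based leading share of Epha4 differed most between animals, at 60.6% in replicate 1 and 34.9% in replicate 2. By read-based TPM the same Epha4 transcript held 40.8% in replicate 1 and 39.1% in replicate 2, so this difference was not seen there.

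The 2 quantifications ranked the members alike but set the levels apart. Read-based TPM were a median 1.55-fold above alignment-based TPM, a log2 difference of -0.64 for alignment-based over read-based. The 2 most abundant plexins stood outside this offset, at -0.03 for Plxnd1 and -0.09 for Plxnb2. In the alignment-based table, a 442-base retained-intron transcript held 26.2% of Plxnd1 in replicate 1 and 25.7% in replicate 2, and an 834-base processed transcript held 24.2% and 23.3% of Plxnb2. Both were at 0 in the read-based table. The leading member was the same in 10 of 11 families, and in the other, Robo, Robo1 ranked above Robo4 by read-based TPM.

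**Figure D5:**
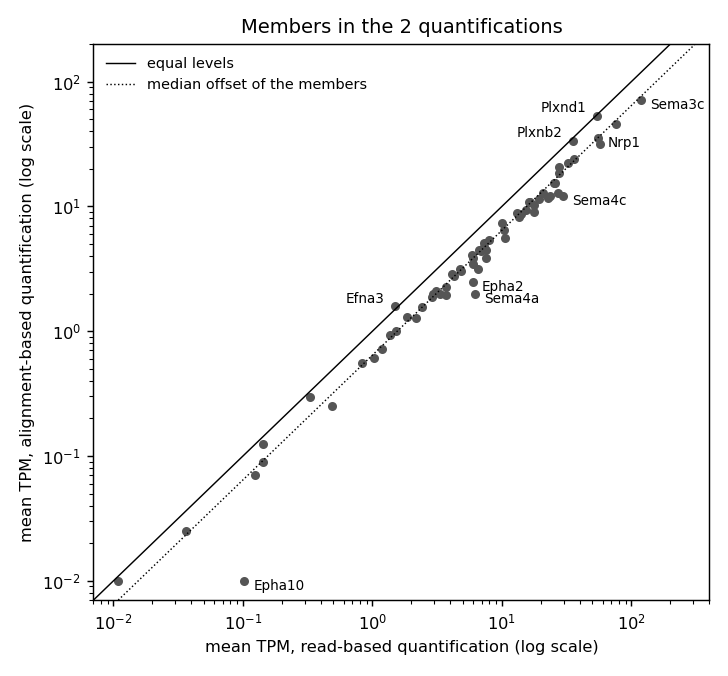
Mean TPM of each member by the alignment-based quantification against the read-based one, both on log axes, with a solid line at equal levels and a dotted line at the members' median offset of 1.55-fold. Plxnd1 and Plxnb2 lie near the solid line and most other members along the dotted one.

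Downstream of these receptors, most of a chosen list of genes that can turn a guidance signal into cytoskeletal change were present. Of 43 listed effectors 41 were at 1 TPM or more in both libraries, where 55.3% of all protein-coding genes were. The effectors had medians of 18.3 TPM in replicate 1 and 18.7 TPM in replicate 2, above the members' own medians of 4.16 and 4.54 TPM. The highest were the actin-severing cofilins Cfl2, the muscle form, at 365 and 342 TPM, and Cfl1 at 227 and 267 TPM. The small GTPases Cdc42 at 128 and 133 TPM, Rac1 at 116 and 129 TPM and Rhoa at 111 and 122 TPM came next, followed by Enah, an actin filament elongator, at 73.1 and 79.2 TPM. Under 1 TPM were Ngef, an exchange factor that binds EphA4, and Rnd1, a small G protein that binds plexins. Of the 43, only Tiam1, a Rac exchange factor, was more than 1.5-fold apart, against 12.7% of all genes. Tiam1 had 5.93 TPM in replicate 1 and 10.83 TPM in replicate 2, a log2 ratio of -0.71.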

How the data were processed

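Total RNA-seq of gastrocnemius from 2 animals, 1 library each, was analysed as 1 group. Per the deposited notes, gene and transcript tables were derived from alignments to the transcriptome and a further transcript table directly from the reads, on mm10 with GENCODE M21. Which quantifier and version were used, and whether it used strand, is not given in the sources used here. Deposited by the authors were expected counts and TPM per gene and transcript, each transcript's percent of its gene, and, in the read-based tables, estimated counts and TPM. Counts in annotated genes were 35281187 in replicate 1 and 32301531 in replicate 2.

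Members were taken by symbol, and the members and lists were chosen with earlier results of these data known. Values per library were given for the 4 highest semaphorins and Eph receptors, the 3 highest plexins and ephrins of each class, all other small families, neighbours within 500 kb, and members over 1.5-fold apart at a mean count of 100 or more. Other genes named, such as Sema4f and Epha10, were chosen after their values were seen. Log2 ratios between libraries used expected counts scaled by TMM (edgeR 4.0.16 in R 4.3.3), a prior of 0.5 counts and exact 95% counting intervals, for genes of mean count 10 or more, and the step was tested on simulated data. Scaling by DESeq2 1.42.0 size factors, total counts and ERCC counts, other thresholds and filters, the read-based values and protein-coding transcripts alone were alternatives. Part of the Schwann cell list is not reported here. No p-value was computed, since 1 group of 2 libraries gives no contrast. Reads of the CAST/EiJ alleles were counted against the mm10 reference, and any loss from mismatches was not tested.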

Additional observations from a re-analysis of the deposited data

How the results depend on the processing

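Directions held in 4 of the 5 receptor to ligand ratios under every alternative tried, and sizes moved. For plexins and neuropilins over semaphorins the log2 ratio was -1.03 with read-based TPM, -0.19 with counts not divided by length and -0.72 over protein-coding transcripts. For EphA over ephrin-A it was 0.31, 1.47 and -0.012 under these settings, the last a reversed order. EphB over ephrin-B gave 0.57 with read-based TPM and 1.13 with counts. Unc5 and Dcc over netrins gave -1.28, -0.99 and -1.22, and -1.10 without a pseudocount. The cause of these shifts was not tested. The protein-coding setting was chosen after seeing the data.

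From 1 library alone, 56 to 57 members reached 1 TPM. At 0.5 and 2 TPM 58 and 46 did, and with read-based TPM 57. Members more than 1.5-fold apart numbered 6 at a mean count of 100 or more, where fewer were tested. The median log2 ratio over all 66 tested members was -0.25 under ERCC scaling. With 1 library per animal, no spread within an animal was measured, and levels under 0.1 TPM rest on few counts.

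No paired analysis was possible because there is 1 group.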

Other observations

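Among coreceptors and other cues outside the guidance families, 17 of 24 listed genes were at 1 TPM or more in both libraries. The list had median levels of 5.64 TPM (replicate 1) and 5.81 TPM (replicate 2). Rtn4, which encodes the Nogo proteins, had 295 TPM in replicate 1 against 270.1 TPM in replicate 2, while Rtn4r, its receptor, stood at 0.58 and 0.50 TPM. Dag1, the laminin receptor dystroglycan that also binds Slits, had 163 and 160.4 TPM, and the integrin subunit Itgb1 178 and 196 TPM. Gpc1, a heparan sulfate proteoglycan, had 97.2 and 92.0 TPM, and the adhesion molecule Ncam1 78.8 and 75.4 TPM. Neo1, a netrin and repulsive guidance molecule receptor related to Dcc, had 34.67 TPM in replicate 1 and 33.78 TPM in replicate 2, and its ligand Rgma 38.55 and 40.11 TPM. Neo1 was thus far above Dcc, which had 0.05 and 0.09 TPM.

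Between animals, 5 of the 24 were more than 1.5-fold higher in replicate 2, namely Nrcam, Flrt3, L1cam, Chl1 and Cntn1, with log2 ratios of replicate 1 over replicate 2 of -0.88, -0.87, -0.63, -0.94 and -0.87. Of all genes 9.14% were that far higher in replicate 2 at a mean count of 10 or more, and 3.13% at 100 or more. All of the named genes but Cntn1 had a mean count of 100 or more. Ntng2 was more than 1.5-fold higher in replicate 1, at 0.61, as were 3.53% of all genes. Among other adhesion molecules of the list, Ncam1 stood at -0.07 and Flrt2 at 0.004, while Flrt1 leaned to replicate 2 at -0.38. Cntn2 stood at -0.08 from 10 counts in each library and Dscam at 0.32 from 12 and 9. These counts are too few to show whether Cntn2 and Dscam shifted.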
